A study of Mus musculus with 9 samples.

Results

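The genes described here encode the non-collagen glycoproteins and proteoglycans of the extracellular matrix of the mouse kidney. They were given as a list of 39 symbols, chosen by what their proteins are. Every non-control probe matched to those symbols by RefSeq accession was taken. Prelp, a small leucine-rich proteoglycan, matched no probe by accession. That left 38 genes on 51 probes, 50 of them tested, among 23878 genes and unnamed transcripts tested in all. RNA of the kidney cortex was hybridised to 9 one-colour Agilent whole-genome arrays, 1 sample an array. The mice were wild-type or Notch3-/-, that is, lacking the receptor Notch3; the labels name no allele, promoter or Cre driver. They were 12 to 16 weeks old and, by the series' text, matched for sex, which the sex-linked transcripts given further on do not bear out for all arrays. In unilateral ureteral obstruction (UUO) the right ureter was tied for 5 days, so that urine backs up and the kidney becomes inflamed and fibrotic. The 4 groups were wild-type healthy (n = 2), wild-type UUO (n = 2), Notch3-/- healthy (n = 2) and Notch3-/- UUO (n = 3). The series' text describes the comparison kidneys as the untreated left kidneys of operated mice, which carry the load of both, and the labels do not tie a healthy array to the mouse of a UUO array. Nothing states whether samples of a group came from separate mice, so the p-values measure the spread between these samples. The study asked how the lack of Notch3 changes the damage pattern of the obstructed kidney.

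The matrix is secreted mainly by fibroblasts, pericytes and other mural cells, with basement membranes laid down by epithelium and endothelium together. Fibronectin is an early scaffold on which collagen and fibrillin assemble. Matricellular proteins such as tenascin C, periostin and the thrombospondins are made in wounds and bind growth factors and cell receptors rather than carrying load. Fibrillin microfibrils, with fibulins and microfibril-associated proteins, guide elastin deposition and hold latent TGF-beta, and small leucine-rich proteoglycans such as decorin and lumican set the spacing of collagen fibrils. Notch3 is a receptor of mural cells that acts through the DNA-binding protein RBPJ.

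The promoters of 3 members are shown because these genes mark the range of responses measured. Tnc rose in both genotypes from a level not well above background in healthy kidneys. Fbn1, the main microfibril subunit, rose by close to the same amount in both genotypes. Igfbp3 was the member that fell with obstruction in wild-type kidneys, though not in Notch3-/- ones. It was also the member that passed the test between genotypes, in healthy kidneys only. Each is the 250 bases upstream of a RefSeq start (GRCm38.p6), written 5′ to 3′ on the strand of the gene. The windows are chr4:64047016-64047265 for Tnc (its first listed start), chr2:125506439-125506688 for Fbn1 and chr11:7213924-7214173 for Igfbp3, all on the minus strand. Capitals mark TATAAA, the TATA box core, and TGGGAA, the core that RBPJ binds (read TTCCCA where it lies on the other strand).
Tnc: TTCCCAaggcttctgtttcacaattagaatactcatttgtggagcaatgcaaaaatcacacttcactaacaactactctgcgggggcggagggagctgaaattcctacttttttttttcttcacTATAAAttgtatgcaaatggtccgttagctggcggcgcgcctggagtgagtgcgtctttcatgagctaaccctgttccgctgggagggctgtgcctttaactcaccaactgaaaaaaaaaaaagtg
Fbn1: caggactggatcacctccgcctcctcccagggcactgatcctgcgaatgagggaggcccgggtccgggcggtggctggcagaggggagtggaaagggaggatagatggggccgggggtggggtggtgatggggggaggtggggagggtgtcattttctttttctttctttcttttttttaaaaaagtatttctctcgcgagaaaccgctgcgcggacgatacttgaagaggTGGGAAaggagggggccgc
Igfbp3: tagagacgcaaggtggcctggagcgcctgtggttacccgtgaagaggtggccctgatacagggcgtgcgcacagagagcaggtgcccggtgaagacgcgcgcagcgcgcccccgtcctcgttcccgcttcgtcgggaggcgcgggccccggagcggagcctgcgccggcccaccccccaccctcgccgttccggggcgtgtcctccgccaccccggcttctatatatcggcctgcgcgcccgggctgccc
In the Tnc window TATAAA lay 126 to 121 bases upstream of the start and TGGGAA 250 to 245 bases upstream on the other strand. In the Fbn1 window TGGGAA lay 19 to 14 bases upstream, and the Igfbp3 window held neither motif. Of the 39 listed genes, 27 had a window in the RefSeq table, 35 windows in all. Searched on both strands with no allowance for overlap between motifs, TGGGAA was in 14 of the 35 windows (40.0%) against 21.6% of all 32851 windows of that length. TATAAA was in 8 (22.9%) against 12.4%, and TGANTCA, the AP-1 motif, in 3 (8.57%) against 6.75%. These are matches of letters in windows, several of which belong to the same gene, and are given as a description.

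Between 28099 and 31496 of 43020 spots on an array were well above background and none was saturated, so precision is limited by how few arrays each group has. Values are log2 signal relative to the 75th percentile of the array (the log2 level), so a level of 0 is the 75th percentile; levels of different genes are not set against each other. The level of Notch3 was -0.26 and -0.50 in wild-type healthy, 0.92 and 0.68 in wild-type UUO, -4.98 and -5.39 in Notch3-/- healthy and -4.30, -3.74 and -3.63 in Notch3-/- UUO, low in every array labelled Notch3-/-; where its probe lies relative to the deleted part is not stated. All 13 markers of kidney tubule and podocyte were well above background on every array. Notch3-/- UUO replicates 2 and 3 stood apart: Xist, made from the inactive X chromosome of females, read 0.18 and 0.00 there against at most -5.71 elsewhere, the Y-linked Ddx3y read -3.80 and -3.67 against at least -0.26, and the summed signal of 12 adrenal cortex markers was 265 and 327 times the 75th percentile against 10.7 to 24.4 on the other arrays. The summed signal of 8 adipocyte markers differed between replicates of 1 group: 150 and 12.2 in wild-type healthy, 2.78 and 105 in Notch3-/- healthy, 42.3 and 36.3 in wild-type UUO, and 6.11, 53.1 and 80.4 in Notch3-/- UUO. Every wild-type array was scanned in 1 period and every Notch3-/- array in another, so genotype and scan period cannot be told apart. Both wild-type UUO arrays shared 1 slide and scan session. The wild-type healthy arrays were each on another slide and in another session, so in wild-type kidneys obstruction and slide cannot be told apart.

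**Figure D1:**
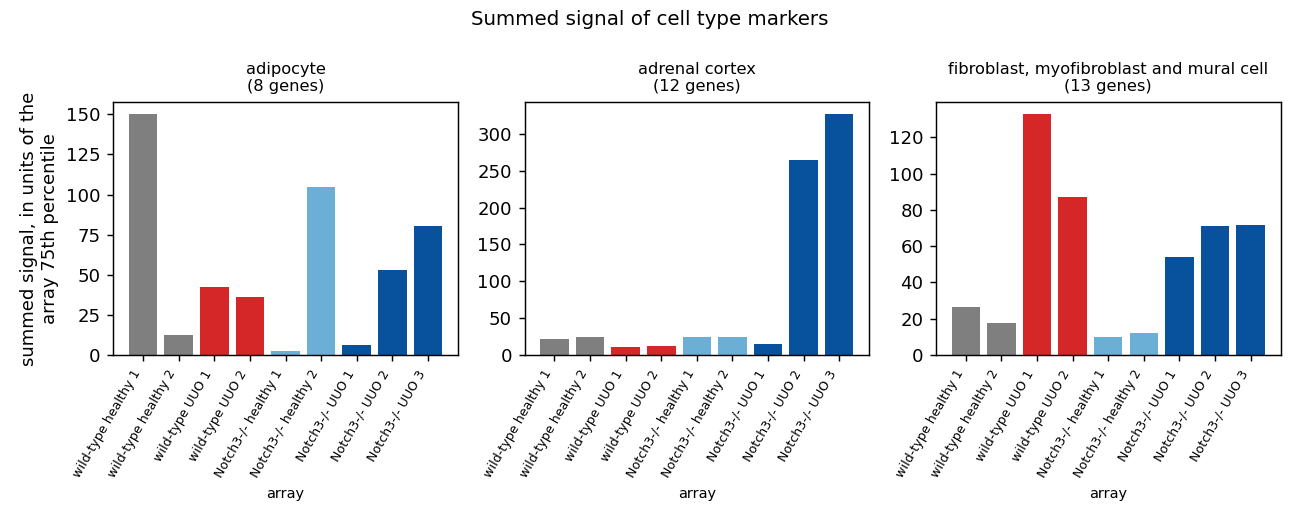
Summed linear signal of 3 marker lists on each of the 9 arrays, in units of the array's 75th percentile; 1 bar is 1 array, coloured by group. Adipocyte markers vary within groups (2.78 and 105 in Notch3-/- healthy), adrenal cortex markers are high on Notch3-/- UUO replicates 2 and 3 (265 and 327), and fibroblast, myofibroblast and mural cell markers are highest in wild-type UUO (133 and 87.2).

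After 5 days of obstruction most of these matrix genes were higher in both genotypes. In wild-type kidneys 21 of the 38 rose and 1 fell at an adjusted p under 0.05 (limma, Benjamini-Hochberg adjustment over all 23878), where 14.1% of all genes tested rose and 11.8% fell. In Notch3-/- kidneys 25 rose and none fell, where 13.3% of all genes tested rose and 13.9% fell. At an unadjusted p under 0.05 there were 27 members in wild-type and 29 in Notch3-/- kidneys, against 9631 and 9917 of all 23878 genes. The median log2 fold change of the members was 1.38 in wild-type and 1.60 in Notch3-/- kidneys, against 0.04 and -0.07 over all genes. All 21 genes that rose in wild-type kidneys also rose in Notch3-/- kidneys, where 9.57% of all genes tested rose in both. Of the 21, 11 had the larger rise in wild-type and 10 in Notch3-/- kidneys. Arrays of UUO and healthy kidneys did not overlap, with UUO above, for 28 members in wild-type (33.5% of all genes) and 32 in Notch3-/- kidneys (26.0%), and with UUO below for 3 (31.1%) and 1 (35.2%). In bulk RNA fewer cells of a type and less RNA per cell cannot be told apart.

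**Figure D2:**
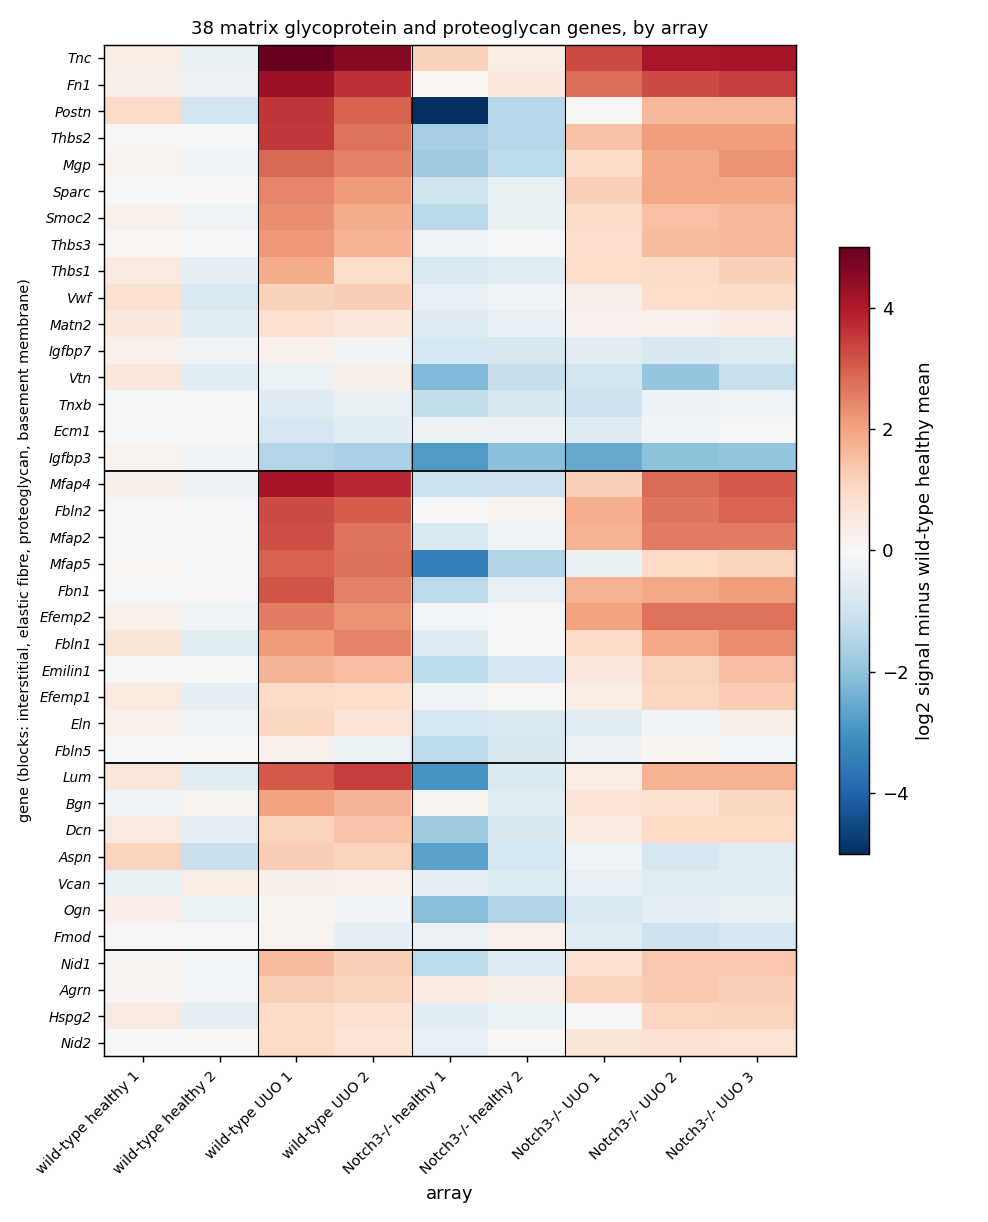
Heat map of the 38 measured members (rows, in 4 blocks by role) on the 9 arrays (columns), as log2 signal minus the wild-type healthy mean; the colour scale ends at -5 and 5. The wild-type UUO columns are red for most genes, while the Notch3-/- healthy columns are blue for 34 of 38 by group mean.

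How many members were called in Notch3-/- kidneys varied with the arrays used, as did the share of all genes called (27.2% with every array). With replicates 2 and 3 of Notch3-/- UUO left out, 4 members rose (Efemp2, Fbln2, Mgp and Thbs2; 1.68% of all genes were then called), with the lone array assumed to vary like the other groups. Without replicate 1 of Notch3-/- UUO 29 were called (36.2% of all genes), without replicate 2 or without replicate 3 alone 15 (7.41% and 7.40%), and without Notch3-/- healthy replicate 1 or 2 the count was 13 or 19 (5.13% and 7.52%). Of the 25 members, 11 were called whichever 1 array was left out. With slide as a block, which rests on the 1 slide that held both Notch3-/- groups (3 UUO arrays and 1 healthy array), 5 members rose (Dcn, Fbn1, Fn1, Thbs1 and Thbs2; 3.30% of all genes were called), and with slide as a random block 25 did (27.3%). The median member of Notch3-/- UUO replicate 1, the array without the adrenal signal, was still 1.42 above the Notch3-/- healthy mean. The median was 1.68 and 1.82 for replicates 2 and 3, and over all genes -0.08 for replicate 1. On replicate 1, 34 of the 38 members were above both healthy arrays, for which the share of all genes was not counted. In wild-type kidneys the count was 9 without wild-type UUO replicate 1 (Agrn, Efemp2, Fbln2, Fbn1, Fn1, Mfap2, Sparc, Thbs2 and Tnc), where the share of all genes called went from 25.9% to 5.39%. With slide as a random block, 15 members were called in wild-type kidneys (10.1% of all genes). Of 13 fibroblast, myofibroblast and mural cell markers, 8 rose in wild-type and 10 in Notch3-/- kidneys, and 2 were below 0 in each genotype. The list includes the matrix genes Col1a1 and Col3a1, and all 13 were well above background on every array. Their summed linear signal, in which the brightest genes weigh most, moved with the members. It was 26.5 and 17.4 in wild-type healthy, 133 and 87.2 in wild-type UUO, 9.91 and 12.4 in Notch3-/- healthy and 54.0, 71.0 and 71.6 in Notch3-/- UUO. The summed signal of the 13 kidney markers was 532 and 638, 184 and 232, 686 and 727, and 425, 228 and 234 in the same order. Of 8 macrophage and monocyte markers, 7 rose in each genotype (medians of 3.33 in wild-type and 3.54 in Notch3-/- kidneys over the 8) and 1 fell in Notch3-/- kidneys; their summed signal was 30.6 and 31.9, 49.1 and 48.2, 40.3 and 30.8, and 47.3, 43.7 and 46.3 in that order. Of 6 platelet and megakaryocyte markers, 1 rose in wild-type kidneys, and 2 rose and 1 fell in Notch3-/- kidneys. Their medians were 0.59 and -0.60, and 3 and 4 of the 6 were below 0. Their summed signal, in which the brightest genes weigh most, was 0.67 and 0.63, 2.98 and 2.56, 0.84 and 0.80, and 2.86, 2.06 and 1.99. The part of these cell types in the changes was not tested.

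The interstitial glycoproteins and matricellular proteins were the largest class. Of 16, 8 rose and 1 fell in wild-type kidneys, and 9 rose in Notch3-/- kidneys, with medians of 1.66 and 1.60. Fn1, fibronectin, read 1.05 and 0.50 in wild-type healthy, 5.05 and 4.42 in wild-type UUO, 0.88 and 1.28 in Notch3-/- healthy, and 3.58, 4.05 and 4.23 in Notch3-/- UUO. Every obstructed array was above every healthy one, and both wild-type UUO arrays were above all 3 Notch3-/- UUO arrays. The rise was 15.6-fold in wild-type (log2 3.96 ± 0.33 SE, adjusted p = 0.00112) and 7.33-fold in Notch3-/- kidneys (2.87 ± 0.30, adjusted p = 0.00188; limma). Tnc, tenascin C, a matricellular protein low in most resting adult tissues, read -6.74 and -7.47 in wild-type healthy, -1.67 and -2.54 in wild-type UUO, -5.95 and -6.73 in Notch3-/- healthy, and -3.84, -3.01 and -3.00 in Notch3-/- UUO. It was not well above background on any healthy array, so only bounds hold: at least 15.1-fold in wild-type and at least 6.54-fold in Notch3-/- kidneys, where the bound sets the mean of the obstructed arrays against the lowest signal well above background (or the probe's own where higher). Its adjusted p was 0.00145 and 0.00552 (limma). A second Tnc probe, well above background on 6 of 9 arrays, gave 3.06 and 2.58 (adjusted p = 0.0104 and 0.0152; limma).

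Thbs2, thrombospondin 2, an inhibitor of angiogenesis that also shapes collagen fibrils, read -3.64 and -3.78 in wild-type healthy, -0.17 and -1.0 in wild-type UUO, -5.36 and -5.15 in Notch3-/- healthy, and -2.22, -1.61 and -1.63 in Notch3-/- UUO. In both states the Notch3-/- arrays lay below the wild-type arrays without overlap, and obstruction raised both genotypes: by 3.12 ± 0.32 (adjusted p = 0.00192) and 3.43 ± 0.29 (adjusted p = 0.000964; limma). It was the member whose rise in Notch3-/- kidneys passed under every alternative tried. Postn, periostin, made by activated fibroblasts, read -1.88 and -3.78 in wild-type healthy, 0.73 and 0.13 in wild-type UUO, -7.98 and -4.26 in Notch3-/- healthy, and -2.78, -1.23 and -1.20 in Notch3-/- UUO. The healthy replicates lay far apart, in the order of their adipocyte signal in both genotypes, and 1 of the 2 Notch3-/- healthy arrays was well above background. Its rise passed in Notch3-/- kidneys (4.38 ± 1.14, adjusted p = 0.0327) and the value in wild-type kidneys was 3.26 ± 1.25 (adjusted p = 0.0977; limma). Mgp, matrix Gla protein, an inhibitor of calcification, read 4.23 and 3.90, 6.93 and 6.60, 2.27 and 2.77, and 5.02, 5.97 and 6.30 in the same order of groups. Obstructed arrays were above all healthy arrays, and it rose by 2.70 ± 0.42 and 3.24 ± 0.38 (adjusted p = 0.00723 and 0.00286; limma).

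The remaining genes of this class that rose did so in both genotypes. Sparc, a collagen-binding matricellular protein, went from a mean level of 5.23 ± 0.03 (SD, n = 2) to 7.52 ± 0.22 (n = 2) in wild-type and from 4.55 ± 0.42 (n = 2) to 6.91 ± 0.42 (n = 3) in Notch3-/- kidneys. Smoc2, a SPARC-related modular calcium-binding protein, went from 1.01 ± 0.35 to 3.10 ± 0.35 and from 0.16 ± 0.67 to 2.38 ± 0.40. Thbs3 went from -1.55 ± 0.15 to 0.41 ± 0.28 and from -1.71 ± 0.11 to -0.19 ± 0.44. Thbs1, thrombospondin 1, an activator of latent TGF-beta, went from 0.46 ± 0.71 to 1.82 ± 0.67 and from -0.21 ± 0.10 to 1.46 ± 0.16; in wild-type kidneys it was the closest to the threshold of the called members (adjusted p = 0.0477, limma).

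Igfbp3 went the other way in wild-type kidneys. It encodes a secreted protein that binds insulin-like growth factors. Its level was 1.62 and 1.23 in wild-type healthy, -0.06 and -0.19 in wild-type UUO, -1.41 and -0.65 in Notch3-/- healthy, and -1.09, -0.65 and -0.49 in Notch3-/- UUO. The wild-type healthy arrays stood above all the others, and the Notch3-/- healthy and obstructed arrays overlapped. It fell by 1.55 on the log2 scale in wild-type kidneys (SE 0.31, adjusted p = 0.0155, limma) and the value in Notch3-/- kidneys was 0.28 ± 0.28 (adjusted p = 0.485). The call in wild-type kidneys was lost without wild-type healthy replicate 1 (adjusted p = 0.0566), wild-type UUO replicate 1 (0.0813) or wild-type UUO replicate 2 (0.0727), and kept without wild-type healthy replicate 2 (0.0340), all by limma. The summed signal of 10 endothelial markers was 28.4 and 29.5 in wild-type healthy, 23.8 and 21.5 in wild-type UUO, 16.1 and 16.9 in Notch3-/- healthy and 19.5, 19.1 and 22.0 in Notch3-/- UUO; its part in the pattern of Igfbp3 was not tested.

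**Figure D3:**
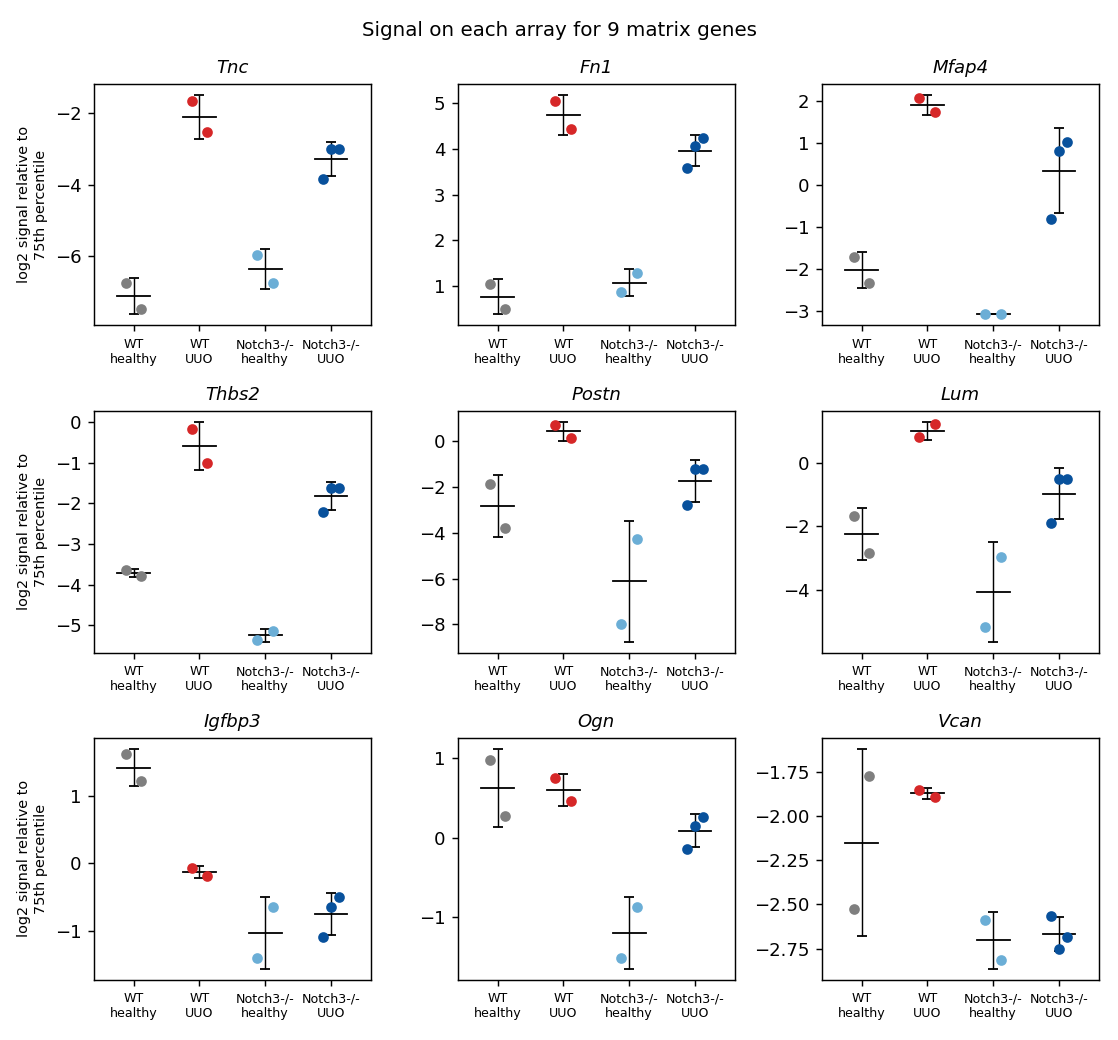
Log2 signal relative to the array's 75th percentile for 9 members in the 4 groups; points are arrays, horizontal lines are group means and bars are SD (n = 2, 2, 2 and 3); each panel has its own scale. Tnc, Fn1, Mfap4 and Thbs2 separate obstructed from healthy arrays, Postn and Lum vary between healthy replicates, and Igfbp3 is highest in wild-type healthy kidneys (1.62 and 1.23).

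Most elastic fibre and microfibril genes rose. Of 11, 8 rose in wild-type and 9 in Notch3-/- kidneys, none fell, and the medians were 2.41 and 2.36. Mfap4, a microfibril-associated glycoprotein that binds elastin and integrins, read -1.73 and -2.33 in wild-type healthy, 2.08 and 1.74 in wild-type UUO, -3.09 and -3.08 in Notch3-/- healthy, and -0.82, 0.81 and 1.02 in Notch3-/- UUO. It rose 15.3-fold in wild-type (3.94 ± 0.59, adjusted p = 0.00639) and 10.7-fold in Notch3-/- kidneys (3.42 ± 0.54, adjusted p = 0.00857; limma), with Notch3-/- UUO replicate 1 well below the other 2. Fbln2, fibulin 2, which links fibrillin, fibronectin and basement membrane, read -1.92 and -2.07, 1.25 and 1.01, -1.99 and -1.80, and -0.19, 0.66 and 0.92 in the same order. Its healthy levels overlapped between genotypes, and it rose by 3.13 ± 0.34 and 2.36 ± 0.31 (adjusted p = 0.00240 and 0.00463; limma). Mfap2, which binds fibrillin, read -1.46 and -1.43, 1.79 and 1.29, -2.21 and -1.67, and 0.28, 1.11 and 1.13, and rose by 2.98 ± 0.35 and 2.78 ± 0.32 (adjusted p = 0.00290 and 0.00255; limma). Mfap5, its relative, read -1.51 and -1.72 in wild-type healthy, 1.33 and 1.14 in wild-type UUO, -5.02 and -3.12 in Notch3-/- healthy, and -2.0, -0.63 and -0.49 in Notch3-/- UUO. All 3 Notch3-/- UUO arrays of Mfap5 were below both wild-type UUO arrays, and one of them was below both wild-type healthy arrays. It rose by 2.85 ± 0.70 and 3.04 ± 0.64 (adjusted p = 0.0279 and 0.0195; limma).

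Fbn1, fibrillin 1, went from -2.50 ± 0.01 (SD, n = 2) to 0.35 ± 0.44 (n = 2) in wild-type and from -3.35 ± 0.64 (n = 2) to -0.58 ± 0.17 (n = 3) in Notch3-/- kidneys, a rise of 2.84 ± 0.33 and 2.78 ± 0.30 (adjusted p = 0.00284 and 0.00217; limma). Efemp2, fibulin 4, which recruits lysyl oxidase to elastin, went from 0.80 ± 0.37 to 3.21 ± 0.22 and from 0.69 ± 0.04 to 3.28 ± 0.41. Fbln1, fibulin 1, went from -1.98 ± 0.83 to 0.31 ± 0.24 and from -2.31 ± 0.44 to -0.24 ± 0.71. Emilin1, an elastin interface glycoprotein that restrains TGF-beta processing, went from -2.71 ± 0.07 to -1.10 ± 0.13 and from -3.78 ± 0.31 to -1.64 ± 0.50. All 4 rose in both genotypes. Fbln5, fibulin 5, an elastin-binding protein, was 3.18 ± 0.01 in wild-type healthy, 3.15 ± 0.43 in wild-type UUO, 2.14 ± 0.34 in Notch3-/- healthy and 3.08 ± 0.21 in Notch3-/- UUO; it rose in Notch3-/- kidneys (0.95 ± 0.24, adjusted p = 0.0309) and gave -0.03 ± 0.26 in wild-type (adjusted p = 0.941; limma).

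Among the small leucine-rich proteoglycans and versican, 2 of 7 rose in wild-type and 4 in Notch3-/- kidneys, with medians of 1.17 and 1.24. Lum, lumican, a keratan sulphate proteoglycan of collagen fibrils, read -1.67 and -2.82 in wild-type healthy, 0.82 and 1.23 in wild-type UUO, -5.18 and -2.95 in Notch3-/- healthy, and -1.88, -0.50 and -0.49 in Notch3-/- UUO. It rose by 3.27 ± 0.82 and 3.11 ± 0.75 (adjusted p = 0.0299 and 0.0273; limma), the obstructed Notch3-/- arrays reaching the range of the wild-type healthy arrays and above it. Bgn, biglycan, which signals through Toll-like receptors when shed, read -1.24 and -0.85, 0.96 and 0.64, -0.86 and -1.64, and -0.39, -0.29 and -0.02 in the same order. It rose by 1.85 ± 0.29 and 1.02 ± 0.27 (adjusted p = 0.00774 and 0.0335; limma). Dcn, decorin, a binder of TGF-beta, went from 2.86 ± 0.64 to 4.12 ± 0.24 in wild-type, which did not pass (1.26 ± 0.43, adjusted p = 0.0702), and from 1.57 ± 0.71 to 3.67 ± 0.32 in Notch3-/- kidneys, which did (2.10 ± 0.39, adjusted p = 0.0144; limma). Ogn, osteoglycin, read 0.97 and 0.28 in wild-type healthy, 0.74 and 0.46 in wild-type UUO, -1.51 and -0.87 in Notch3-/- healthy, and -0.14, 0.14 and 0.26 in Notch3-/- UUO. The Notch3-/- healthy arrays of Ogn were below all the others, and its Notch3-/- UUO arrays were also below every wild-type array. Ogn rose in Notch3-/- kidneys (1.28 ± 0.28, adjusted p = 0.0219) with -0.02 ± 0.31 in wild-type (adjusted p = 0.969, both by limma).

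Basement membrane genes had the lowest medians of the 4 classes. Of 4, the same 3 rose in both genotypes, with medians of 1.01 and 1.02. Nid1, nidogen 1, which bridges laminin and collagen IV, went from 0.96 ± 0.18 to 2.36 ± 0.28 in wild-type and from -0.00 ± 0.46 to 2.13 ± 0.34 in Notch3-/- kidneys. Nid2 went from -1.60 ± 0.05 to -0.80 ± 0.19 and from -1.78 ± 0.33 to -0.94 ± 0.07. Agrn, agrin, the heparan sulphate proteoglycan of the glomerular basement membrane, went from 3.72 ± 0.18 to 4.88 ± 0.06 and from 4.07 ± 0.08 to 4.94 ± 0.10. A dimmer Agrn probe, well above background on all 9 arrays, passed in neither genotype. It gave 1.09 in wild-type and 0.28 in Notch3-/- kidneys (adjusted p = 0.0595 and 0.543, limma). Hspg2, perlecan, read 1.80 and 0.90 in wild-type healthy, 2.31 and 2.12 in wild-type UUO, 0.82 and 1.0 in Notch3-/- healthy, and 1.34, 2.43 and 2.46 in Notch3-/- UUO. Each genotype's obstructed arrays were above its healthy ones, but the spread kept Hspg2 short of the threshold (adjusted p = 0.190 and 0.0709; limma).

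**Figure D4:**
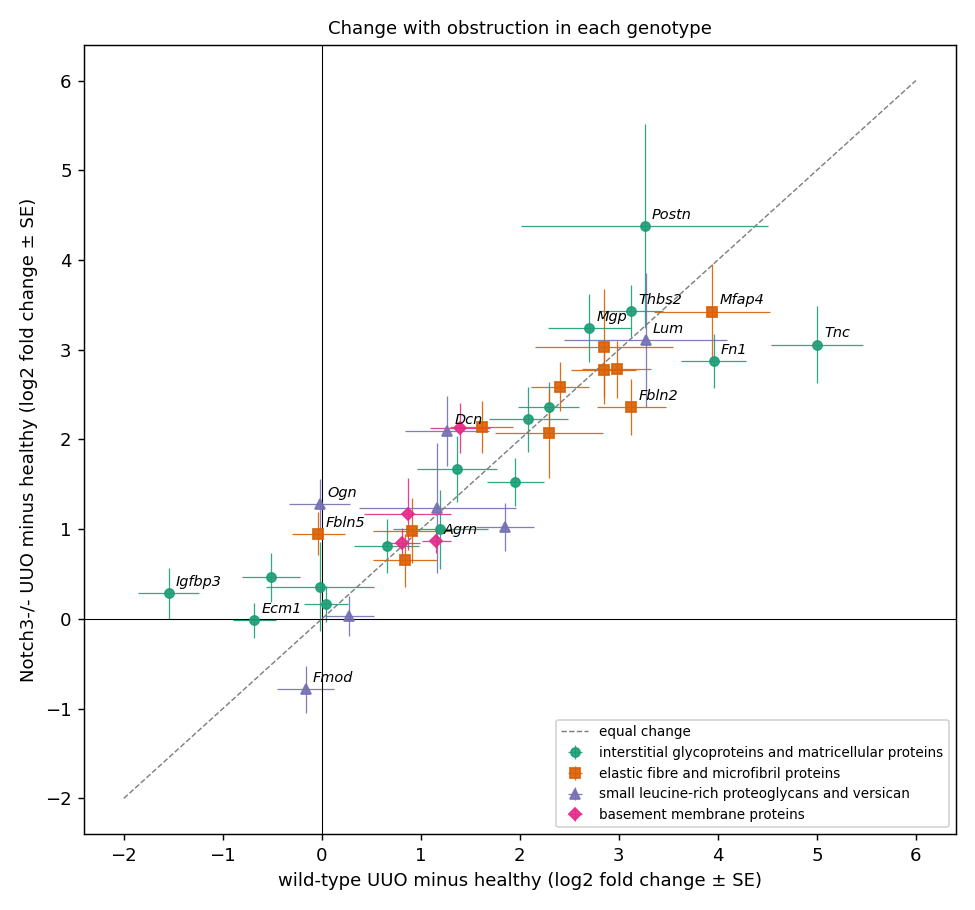
Log2 fold change with obstruction of the 38 members in wild-type (horizontal) and Notch3-/- kidneys (vertical), with SE bars; symbols give the role and the dashed line equal change. Fn1 lies to the right of the line, as does Tnc, whose healthy signal was not well above background. Ogn, Fbln5 and Igfbp3 lie above the line, and Postn has the widest error (1.25 and 1.14).

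In all, 12 members passed in neither genotype, Hspg2 among them. Efemp1, fibulin 3, read 0.55 and -0.45 in wild-type healthy, 1.02 and 0.91 in wild-type UUO, -0.16 and 0.11 in Notch3-/- healthy, and 0.43, 1.11 and 1.33 in Notch3-/- UUO. Vwf, von Willebrand factor of endothelium and platelets, read -0.84 and -2.40, -0.46 and -0.38, -2.05 and -1.80, and -1.33, -0.75 and -0.69 in the same order. Matn2, matrilin 2, read 0.36 and -0.72, 0.58 and 0.36, -0.83 and -0.59, and 0.03, 0.06 and 0.24. For Efemp1, Vwf and Matn2 the obstructed arrays of each genotype lay above its healthy ones, with a wide gap between the wild-type healthy replicates. Eln, elastin, the core of the elastic fibre, read -3.89 and -4.42 in wild-type healthy, -3.13 and -3.51 in wild-type UUO, -5.04 and -4.91 in Notch3-/- healthy, and -4.77, -4.32 and -3.87 in Notch3-/- UUO. The change of Eln was 0.84 ± 0.32 and 0.65 ± 0.29 (adjusted p = 0.0992 and 0.142; limma), with obstructed above healthy arrays in each genotype.

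Ecm1, extracellular matrix protein 1, read 4.10 and 4.07 in wild-type healthy, 3.25 and 3.56 in wild-type UUO, 3.80 and 3.81 in Notch3-/- healthy, and 3.43, 3.91 and 4.02 in Notch3-/- UUO. Wild-type UUO arrays were below wild-type healthy arrays (-0.68 ± 0.22, adjusted p = 0.0607, limma), and Notch3-/- UUO arrays fell on both sides of the Notch3-/- healthy ones. Tnxb, tenascin X, a stabiliser of collagen fibrils, read -0.19 and -0.08, -0.78 and -0.52, -1.34 and -0.92, and -1.17, -0.44 and -0.40 in the same order, so its wild-type UUO arrays were below the healthy ones while the Notch3-/- arrays overlapped. Fmod, fibromodulin, a relative of lumican, read -2.42 and -2.50, -2.30 and -2.96, -2.77 and -2.21, and -3.03, -3.49 and -3.30. The Notch3-/- UUO arrays of Fmod were the lowest of all (-0.79 ± 0.26 against Notch3-/- healthy, adjusted p = 0.0648, limma). Igfbp7, a secreted protein abundant in vessel walls, read 0.60 and 0.08, 0.60 and 0.17, -0.54 and -0.48, and -0.23, -0.45 and -0.36, with no separation by obstruction in wild-type kidneys.

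Aspn, asporin, read -4.28 and -6.48 in wild-type healthy, -4.14 and -4.28 in wild-type UUO, -8.05 and -6.27 in Notch3-/- healthy, and -5.56, -6.23 and -5.97 in Notch3-/- UUO, and was well above background on 5 of 9 arrays. Vtn, vitronectin, a plasma protein made mostly in liver, read -5.16 and -6.29, -6.06 and -5.43, -7.92 and -6.90, and -6.66, -7.67 and -6.83, and was well above background on 2 of 9 arrays, both wild-type. At these signals their order within groups cannot be read. Vcan, versican, a large chondroitin sulphate proteoglycan, read -2.53 and -1.78 in wild-type healthy, -1.85 and -1.89 in wild-type UUO, -2.59 and -2.82 in Notch3-/- healthy, and -2.56, -2.75 and -2.68 in Notch3-/- UUO, with no separation by obstruction. A dimmer Vcan probe, designed to another transcript accession, read -2.34 and -7.72, -1.83 and -2.33, -7.88 and -6.30, and -3.46, -2.97 and -2.54 in the same order. Its values were 2.95 and 4.10 with obstruction (adjusted p = 0.202 and 0.0722; limma), and neither probe passed; 3 of its 4 healthy values are far below its other values and it was well above background on 6 arrays only, so its size cannot be set against that of the brighter probe. Of the 11 members with several tested probes, none had probes called in opposite directions. Dimmer probes of Agrn, Fbln1 and Fbln5 did not pass in 1 or both genotypes where the brighter probe did.

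Between the genotypes, obstructed kidneys showed lower mean levels in Notch3-/- for nearly all of these genes, but no single gene passed the test. In UUO 35 of 38 members had a log2 fold change below 0 (Notch3-/- minus wild-type), where 50.5% of all genes did, and the median was -0.63 against -0.0045 over all genes. All 3 Notch3-/- UUO arrays were below both wild-type UUO arrays for 26 members, a separation that 22.9% of all genes showed, and above them for none. None of the 38 passed at an adjusted p under 0.05 (limma), where 0.297% of all genes were called, 0.0796% higher and 0.218% lower. At an unadjusted p under 0.05 there were 14 members and 4005 of all 23878 genes. The smallest p were those of Thbs2 (-1.24 ± 0.29, 95% interval -1.94 to -0.54, adjusted p = 0.130), Bgn (-1.03 ± 0.27, -1.67 to -0.40, adjusted p = 0.153) and Igfbp7 (-0.73 ± 0.20, -1.21 to -0.25, adjusted p = 0.169; limma). For Fn1 the difference was -0.78 (-1.49 to -0.07) and for Tnc -1.18 (-2.19 to -0.17), with adjusted p of 0.264 and 0.243 (limma). Basement membrane genes lay nearest 0, from -0.23 for Nid1 to 0.06 for Agrn (-0.25 to 0.38).

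Urothelium markers moved with this difference: all 6 were lower on every Notch3-/- UUO array than on both wild-type UUO arrays, with a median of -3.97, and 1 of them, Krt14, passed (-2.66 ± 0.21, adjusted p = 0.0155, limma). Their summed signal was 7.27 and 6.24 in wild-type UUO and 1.63, 0.48 and 0.40 in Notch3-/- UUO, and 6.38 and 1.20 in wild-type healthy and 0.42 and 1.37 in Notch3-/- healthy. Within Notch3-/- UUO, replicate 1 had the highest of these sums, while it was the lowest of the 3 arrays for 33 of 38 members (41.2% of all genes). The part of urothelium in the lower levels of the members was not tested.

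Replicate 1 of Notch3-/- UUO weighed on this comparison. It was the lowest of the 3 arrays for 33 of 38 members (41.2% of all genes, and 81.0% of all genes that rose in Notch3-/- kidneys), and its kidney marker signal of 425 was the nearest of any UUO array to the healthy arrays. Its summed adipocyte signal of 6.11 was the lowest of any UUO array, against 53.1 and 80.4 on replicates 2 and 3. In wild-type UUO that signal was 42.3 and 36.3, and replicate 1 was above replicate 2 for 31 of 38 members. All 8 adipocyte markers were below 0 between genotypes in UUO, with a median of -1.24. The part of fat tissue in the UUO differences was not tested. The members' median difference was -0.41 without that array and -1.02 without replicates 2 and 3. With arrays weighted by their fit, which gives the arrays unequal say, 8 members passed: Aspn, Bgn, Igfbp7, Mfap4, Mfap5, Thbs2 and Vcan were lower and Ecm1 higher, where 18.3% of all genes were called.

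**Figure D5:**
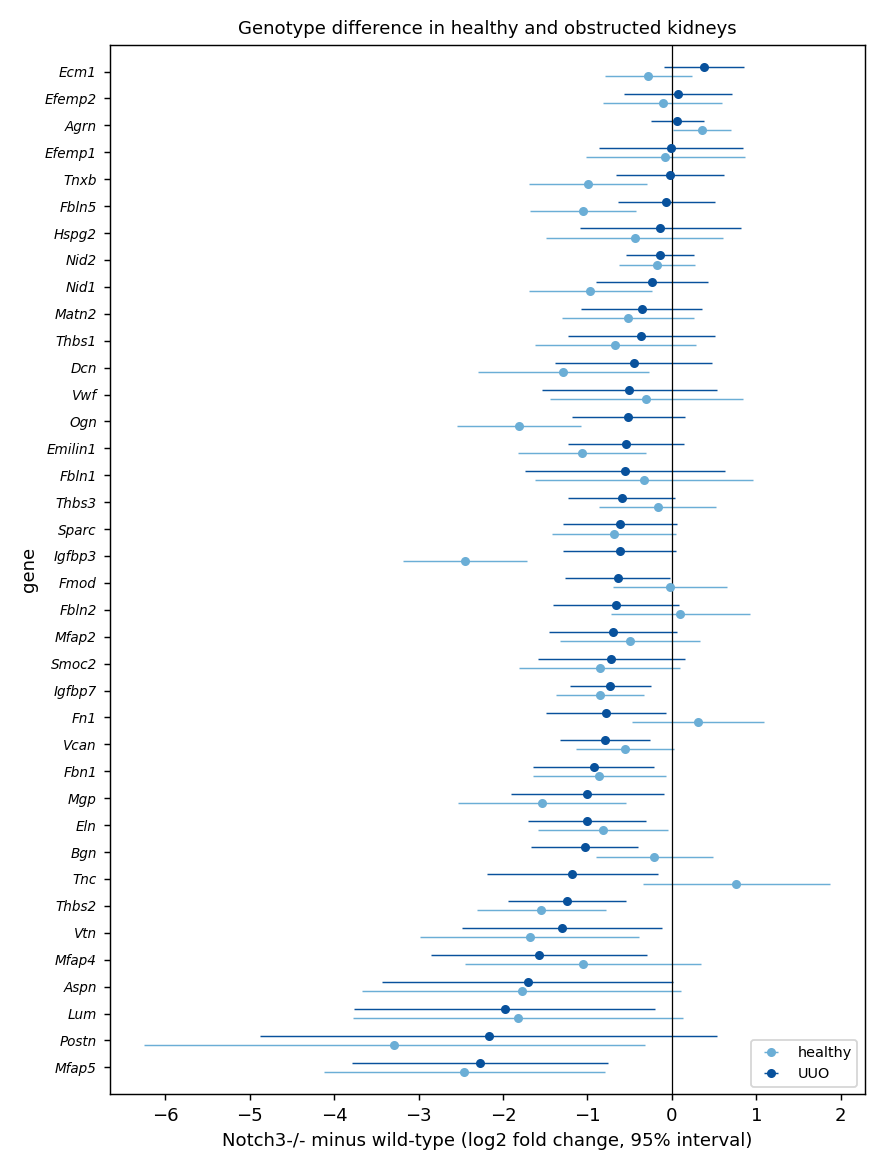
Notch3-/- minus wild-type log2 fold change of the 38 members in healthy (light) and UUO kidneys (dark), with 95% intervals of the limma fit, ordered by the UUO value. Most points lie below 0 in both states, and the healthy value of Igfbp3 (-2.45) has an interval far from 0.

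Healthy kidneys showed a shift of the same direction. Here 34 of 38 members were below 0 (44.5% of all genes) with a median of -0.75 against 0.06 over all genes, 32 members were below 0 in both states, and both Notch3-/- healthy arrays were below both wild-type arrays for 23 members (17.4% of all genes) and above them for 2 (27.8%). Within each genotype most members took the order of the adipocyte signal, over 1 pair of arrays each. Wild-type healthy replicate 1, with the summed adipocyte signal of 150, was above replicate 2 for 32 of 38 members (median difference, replicate 2 minus 1, -0.44). Notch3-/- healthy replicate 1, with 2.78, was below replicate 2 for 34 (median 0.43). The share of all genes in these orders was not counted. Summed fibroblast, myofibroblast and mural cell markers took the same order (26.5 and 17.4, 9.91 and 12.4). So did urothelium markers (6.38 and 1.20, 0.42 and 1.37). The part of fat tissue or of these other cells in the healthy differences was not tested. Igfbp3 passed (-2.45 ± 0.31, 5.47-fold lower, adjusted p = 0.0347, limma), where 0.272% of all genes were called lower and 0.511% in either direction. That call was lost without any 1 of the 4 healthy arrays (adjusted p 0.0661 and 0.0603 without wild-type replicate 1 or 2, and 0.0880 and 0.0801 without Notch3-/- replicate 1 or 2; limma) and with slide as a random block (0.0657). Next were Ogn (-1.82 ± 0.31, adjusted p = 0.0697) and Thbs2 (-1.55 ± 0.32, adjusted p = 0.0973; limma), which did not pass.

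The difference between the 2 obstruction responses was itself tested. At an unadjusted p under 0.05 there were 6 members and 1705 of all 23878 genes. At the adjusted threshold no member passed, where 0.0% of all genes were called (limma). Igfbp3 came nearest, with a response 1.83 ± 0.42 higher in Notch3-/- kidneys (95% interval 0.84 to 2.82, adjusted p = 0.411). Ogn followed at 1.30 (0.31 to 2.29, adjusted p = 0.597; limma). Tnc had the next p, but as it was not well above background on any healthy array the size of its difference cannot be read; its fitted value was -1.94 and that of its second probe -0.48 (adjusted p = 0.597 and 0.902; limma). The median over the members was 0.10 against -0.07 over all genes. So Dcn, Postn, Fbln5 and Ogn, which passed in Notch3-/- kidneys and not in wild-type ones, are not shown to respond differently between them.

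Genes of 3 further lists cover other matrix proteins, the enzymes of their sugar chains and their receptors. Of 71 other matrix glycoproteins and proteoglycans tested, 19 rose and 12 fell in wild-type and 23 rose and 7 fell in Notch3-/- kidneys, with medians of 0.46 and 0.75. Spp1, osteopontin, an injury-induced tubular glycoprotein, rose by 4.15 ± 0.35 and 3.72 ± 0.32 (adjusted p = 0.00117 and 0.000978; limma). Frem1, a basement membrane adhesion protein, rose by 2.87 and 2.41, the cell-surface proteoglycan Gpc3 by 1.80 and 1.60, Sdc1, syndecan 1, by 1.73 and 1.34, and Sdc3, syndecan 3, by 1.72 and 2.59. Srgn, serglycin, the proteoglycan of leukocyte granules, rose by 1.54 in Notch3-/- kidneys (adjusted p = 0.00205) and gave 0.26 in wild-type (adjusted p = 0.326; limma). Between genotypes Gpc5 was lower in Notch3-/- UUO (-1.34 ± 0.17, adjusted p = 0.0445), and Srgn (-1.27 ± 0.18, adjusted p = 0.0461) and Esm1 (-1.81 ± 0.20, adjusted p = 0.0253; limma) were lower in Notch3-/- healthy kidneys; these 3 comparisons are named because they were the calls of this list, chosen after their values were seen.

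Of 46 enzymes that make or modify glycosaminoglycan chains, 10 rose and 3 fell in wild-type and 9 rose and 4 fell in Notch3-/- kidneys, with medians of 0.08 and 0.02, near those of all genes. Has1, a hyaluronan synthase, was not well above background in wild-type healthy kidneys and rose at least 3.44-fold there (adjusted p = 0.00253); in Notch3-/- kidneys it also passed (1.86 ± 0.37, adjusted p = 0.0172; limma), at signals too close to background to bound a fold. The dermatan sulphate enzymes Dsel and Chst14 rose by 1.58 and 1.11 in wild-type and 1.72 and 1.65 in Notch3-/- kidneys. Papss2 and Papss1, which make the sulphate donor PAPS, fell by 1.57 and 1.07 in wild-type and by 1.51 and 0.79 in Notch3-/- kidneys. Of 22 receptors for these matrix proteins, 12 rose and 1 fell in wild-type and 11 rose and 1 fell in Notch3-/- kidneys, with medians of 0.97 and 0.75. Tlr2, a receptor that biglycan engages, rose by 3.90 ± 0.21 and 3.72 ± 0.19 (adjusted p = 0.000540 and 0.000432; limma). Cd44, the hyaluronan receptor, rose by 3.73 and 3.14, the fibronectin receptor subunit Itga5 by 1.47 and 2.16, Itgb3 by 1.70 and 1.56, and the scavenger receptor Stab1, which takes up SPARC, by 1.57 and 1.69.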

How the data were processed

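Cy3-labelled cortical kidney RNA was hybridised to 9 one-colour Agilent arrays. The deposited files hold spot intensity as Agilent Feature Extraction 10.7.3.1 gave it, background-subtracted and detrended, per the file headers (version 10.5 in the submitters' processing notes). The authors' value table holds log2 values of the same arrays; how they were normalized is not stated in the labels or headers. It correlated with the scanner values at 0.971 to 0.986 per array, with column medians of 7.02 to 7.05, and served as an alternative.

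Here the processed signal was put on a log2 scale and the array's 75th percentile subtracted; outlier spots and control spots were left out and spots of a probe averaged. A probe was kept (29336 of 39429) if 2 or more of the 9 arrays had it well above background. Names came from RefSeq accessions (GRCm38.p6 table; 27234 probes named, 12195 unnamed), and the brightest probe stood for a gene. limma 3.58.1 (R 4.3.3) was fitted to the 4 group means of all arrays (5 residual degrees of freedom), with Benjamini-Hochberg adjustment over 23878 genes and unnamed transcripts and a threshold of 0.05; the fit was tested on simulated data. Errors with a fold change are SE, those with a level SD.

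All members are named. Values on each array are given for the 8 members with the largest called change in each obstruction comparison, the calls or 3 smallest p of the genotype tests, members that fell, members that passed in neither genotype, and Fn1; other lists give up to 4 genes with the smallest adjusted p in each obstruction comparison. The members and lists were chosen with earlier results of these data known. Array grids were built on another genome build, so gene coordinates are not given beside levels. Correlations of same-numbered samples' deviations ran from -0.21 to 0.157, so numbers were not used as pairs.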

Additional observations from a re-analysis of the deposited data

How the results depend on the processing

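No member called under either setting changed its sign under any alternative in the 5 comparisons; signs of values that were called under neither differed in 13 and 20 cases for obstruction in wild-type and Notch3-/- kidneys, 27 and 18 for genotype in UUO and healthy kidneys, and 87 for the difference of responses. In wild-type kidneys the count of called members ran from 9 to 20 with 1 array left out (22 with all). The share of all genes called then ran from 5.39% to 19.8% (25.9% with all). In these kidneys 9 members passed under every alternative. In Notch3-/- kidneys it ran from 13 to 29 (25 with all), was 5 with slide as a fixed block and 4 without Notch3-/- UUO replicates 2 and 3, and Thbs2 passed under every alternative. Between genotypes in UUO the count was 0, where 0.297% of all genes were called. It was 1 with normexp background correction (Mfap5, lower), where 1.0% of all genes were called. It was 8 with array weights (18.3% of all genes) and 2 with only the groups compared fitted (Aspn and Vcan, lower, 2.53% of all genes). With 1 array left out it was 0 throughout. In healthy kidneys it was 1, but 2 with normexp or with trended and robust moderation (Igfbp3 and Ogn, with 0.473% and 0.988% of all genes called). It was 0 with slide as a random block, with array weights, with only the groups compared and with any 1 array left out. The difference of responses gave 0 throughout. Normexp moved the members' median in healthy kidneys from -0.75 to -0.36, with all genes at 0.19.

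Same-numbered samples did not deviate together. With the replicate number as a block the counts were 16 in wild-type and 11 in Notch3-/- kidneys and 0 in healthy kidneys between genotypes, with 10.8%, 3.87% and 0.00419% of all genes called. Wild-type and Notch3-/- healthy deviations correlated at -0.113; with crossed numbers as a block, added after seeing the data, the count was 0. The cause of these moves was not tested. Signal limits Tnc, Postn, Aspn and Vtn, which were not well above background on all arrays.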
